A study of Homo sapiens with 8 samples.

Results

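The transcription factors that drive or restrain the epithelial to mesenchymal transition (EMT), together with the filament protein vimentin, were examined in a human breast cancer cell line with and without knockdown of the integrin α3 subunit. The 10 listed genes were SNAI1, SNAI2, ZEB1, ZEB2, TWIST1, TWIST2, PRRX1, FOXC2, GRHL2 and VIM, and a row of the data was taken as a member when it was annotated to that gene alone. At the gene level 9 of the 10 had a transcript cluster, which is the set of array probes assigned to 1 gene, out of 14220 genes with a single symbol. The expression of TWIST2 was not analysed here. At the exon level the 9 genes had 103 probesets, each a small group of probes within 1 exon or part of one.

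MDA-MB-231 is an established triple-negative breast cancer line with a mesenchymal character. The cells had been transduced with lentivirus and stably expressed either an shRNA against α3 or a control shRNA, and otherwise shared the same line, serum-containing medium and standard culture plates. Each group had 2 samples that the series description calls biological replicates, so n = 2 for each mean ± SD given here. Total RNA was hybridised to Affymetrix Human Exon 1.0 ST arrays, 1 per sample, and each of the 4 arrays was summarised both per gene and per exon, so the exon-level values are a second reading of the same arrays. The labels name no further hairpin and no rescue, so the hairpin and the loss of α3 cannot be told apart, and they do not say whether the lines were clones or pools.

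During EMT, epithelial cells lose their junctions, change their cytoskeleton and become motile. SNAI and ZEB proteins are zinc-finger repressors that bind E-box motifs in the promoters of epithelial genes, with CDH1, which encodes E-cadherin, as the best known target, while TWIST, PRRX1 and FOXC2 promote mesenchymal gene expression and GRHL2 maintains the epithelial state and represses ZEB1. Vimentin is the intermediate filament of mesenchymal cells and is abundant in MDA-MB-231.

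Because SNAI and ZEB factors bind the E-box CACCTG, which reads as CAGGTG along the opposite strand, the 250 bases before the RefSeq gene start (build GRCh38.p14) are shown for ZEB2, the member that rose, and for ZEB1 and VIM, 2 others described at length, with any such E-box in capitals. They lie at chr2:144520120-144520369 on the minus strand for ZEB2, chr10:31318167-31318416 on the plus strand for ZEB1 and chr10:17227991-17228240 on the plus strand for VIM, and each is written 5′ to 3′ along the gene.
ZEB2: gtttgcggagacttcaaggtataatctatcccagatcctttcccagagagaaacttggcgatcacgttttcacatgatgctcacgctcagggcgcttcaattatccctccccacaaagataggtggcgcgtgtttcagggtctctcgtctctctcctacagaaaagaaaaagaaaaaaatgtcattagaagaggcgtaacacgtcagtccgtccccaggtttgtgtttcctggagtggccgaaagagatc
ZEB1: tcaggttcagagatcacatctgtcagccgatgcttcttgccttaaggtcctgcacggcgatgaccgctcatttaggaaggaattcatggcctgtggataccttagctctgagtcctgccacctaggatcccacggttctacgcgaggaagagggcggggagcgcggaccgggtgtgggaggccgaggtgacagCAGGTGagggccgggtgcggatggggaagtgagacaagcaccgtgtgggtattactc
VIM: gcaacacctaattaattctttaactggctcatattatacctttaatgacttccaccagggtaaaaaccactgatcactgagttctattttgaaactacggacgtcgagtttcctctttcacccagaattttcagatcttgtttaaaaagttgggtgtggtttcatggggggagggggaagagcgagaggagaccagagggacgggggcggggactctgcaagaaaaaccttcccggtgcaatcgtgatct
The ZEB1 window held 1 E-box, which begins 57 bases before the gene start. The ZEB2 and VIM windows held none, and neither did those of PRRX1 and TWIST2. Of 35116 RefSeq promoter windows of the same length, 17.5% held at least 1. A match is a description of the letters and not a binding site.

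All values are PLIER intensities, a linear probe-brightness summary with no unit, and levels of different genes are not compared. The hairpin's target ITGA3 had 619 and 644 in α3 shRNA cells, against 3479.8 and 3529 in control cells, or 18.0% of control (log2 difference -2.44, adjusted p = 8.70e-05, limma with Benjamini-Hochberg adjustment over all clusters tested). Median gene-level intensity was 168.2 and 170.6 in α3 shRNA arrays and 176.6 and 186.5 in control arrays. Log2 values correlated at 0.9915 between the α3 shRNA arrays, at 0.9899 between the control arrays and at 0.9794 to 0.982 across the groups. A cluster or probeset was tested when its mean over the 4 arrays was outside the lower 40%, and one below that filter is called dim here. Of 13206 clusters tested, 793 rose and 2033 fell at an adjusted p under 0.05. The split moved to 1351 and 1700 after quantile normalization and to 1494 and 1529 after centring each array on its median. Leaving out α3 shRNA array 1, α3 shRNA array 2, control array 1 or control array 2 gave 394, 169, 499 and 893 that rose and 720, 663, 1918 and 1350 that fell. All 5 markers chosen as present in MDA-MB-231 (VIM, CD44, MSN, CAV1 and AXL) were above the filter, and 1 of them fell (AXL). Their summed intensity was 17877 and 17558 in α3 shRNA cells and 20969.9 and 21329 in control cells. Of 5 chosen as absent or low (ESR1, PGR, ERBB2, CDH1 and EPCAM), 2 were above the filter, ERBB2 and EPCAM. ERBB2 had 332 and 346 in α3 shRNA cells, against 460 and 480 in control cells, and fell (adjusted p = 0.0169, limma). EPCAM had 110 and 138 in α3 shRNA cells, against 99 and 114 in control cells, and did not pass. Of 4 leukocyte markers with a cluster PTPRC was dim, CD68 fell, and CD14 and CD3E did not pass. Their sum was 1876 and 1869.8 in α3 shRNA cells and 2242 and 2140.4 in control cells. Within that sum CD68 alone had 1534 and 1450 in α3 shRNA cells, against 1871 and 1808 in control cells. In bulk RNA, fewer cells of a kind and less RNA per cell cannot be told apart, and with 2 arrays a group the smallest exact permutation p is 0.333, so each test rests on the spread shared across features in the limma fit.

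Among the members, SNAI2 fell to 47.8% of its control level and ZEB2 rose to 1.52 times its control level, while ZEB1, TWIST1, FOXC2 and VIM did not pass the test. SNAI1, PRRX1 and GRHL2 were dim, and none of the 3 passed with no filter, where 9.07% of all 22011 clusters did. Thus 1 of 6 tested members rose and 1 fell, where 6.00% of all tested clusters rose and 15.4% fell (21.4% in all). The groups did not overlap for 7 of the 9 members, where the same held for 52.2% of all clusters. The median log2 difference of the 6 tested members was 0.12, beside -0.06 over all clusters tested.

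**Figure D1:**
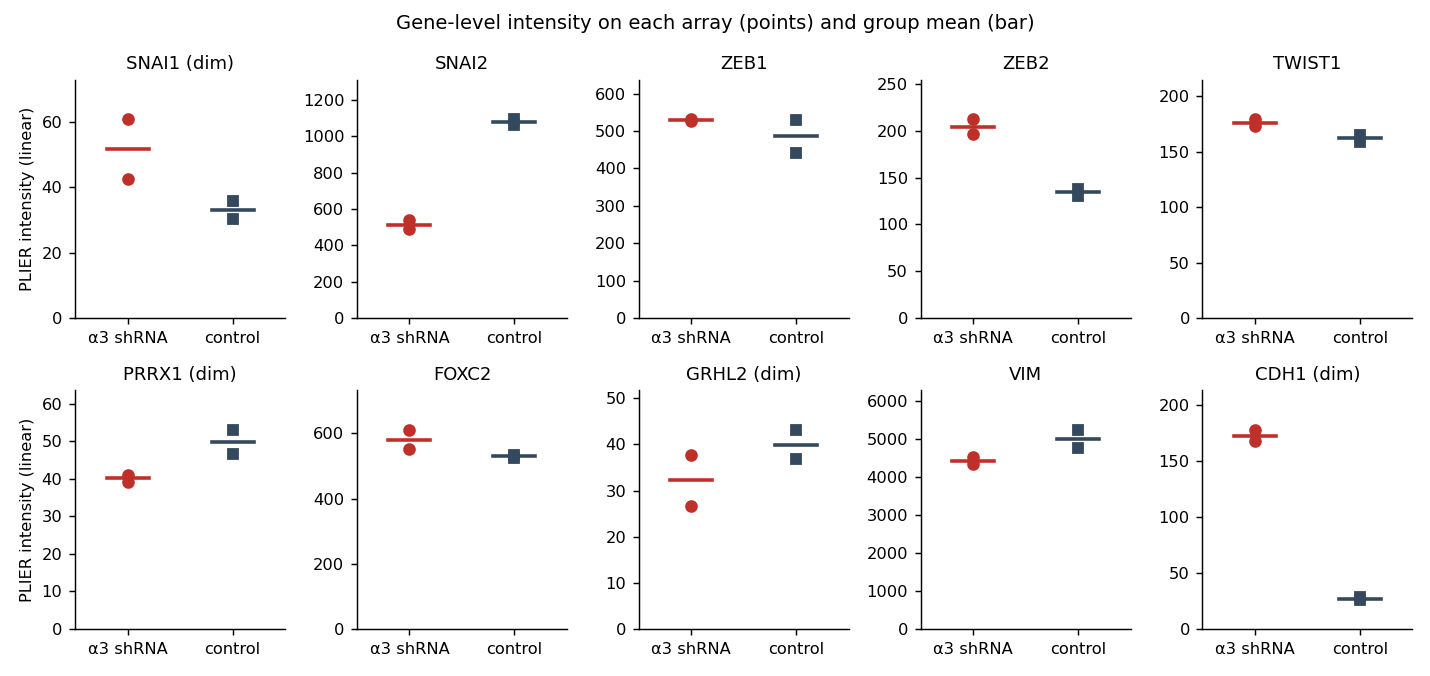
Gene-level PLIER intensity (linear, y axis from 0 in each panel) of the 9 members with a cluster and of CDH1, with circles for the 2 α3 shRNA arrays on the left, squares for the 2 control arrays on the right, and a bar at each group mean. SNAI2 lies at 542 and 489 in α3 shRNA cells and at 1093 and 1064 in control cells, ZEB2 and CDH1 lie higher in α3 shRNA cells, and ZEB1 and GRHL2 overlap between the groups.

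SNAI2 encodes Slug, a repressor of epithelial genes that is also needed by stem-like cells of the mammary epithelium. Its intensity was 542 and 489 in α3 shRNA cells, against 1093 and 1064 in control cells. Both α3 shRNA arrays lay far below both control arrays, and the gap between the groups was many times the distance between replicates. The means were 515 ± 37.9 in α3 shRNA cells and 1079 ± 20.4 in control cells, a log2 difference of -1.04 (SE 0.09, 95% interval -1.25 to -0.83). The adjusted p was 0.0017 in the limma fit, and it stayed between 0.000239 and 0.0109 under the 15 alternative settings tried.

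Each of the 5 SNAI2 probesets fell as well. Probeset 3134549 gave 1094 and 1001 in α3 shRNA cells, against 2227 and 2185 in control cells. Probeset 3134550 had 547 and 376 in α3 shRNA cells and 955 and 839 in control cells, the widest spread between replicates within this gene. Probeset 3134552 had 351 and 387 in α3 shRNA cells and 805 and 839 in control cells. The pattern thus ran the same way at each of these positions, with no overlap of the groups, where 45.1% of all probesets showed none. Probeset 3134553 had 308 and 286 in α3 shRNA cells and 589 and 603 in control cells. Probeset 3134554 had 348 and 404 in α3 shRNA cells and 825 and 864 in control cells. The 5 log2 differences ran from -1.14 to -0.96, with adjusted p from 0.0040 to 0.0349 in the exon-level limma fit. These calls depended on the settings: of all member probesets, 7 fell in that fit, 5 of them in SNAI2, but 0 with no filter and 3 without an intensity trend. No SNAI2 probeset passed the test for exon usage, with 0.968 as the smallest adjusted p.

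SNAI1 encodes Snail, the close relative of Slug and an unstable protein that represses CDH1. It was dim, with 60.7 and 42.7 in α3 shRNA cells and 35.7 and 30.4 in control cells. Both α3 shRNA arrays were above both control arrays, but they differed more from each other than the lower of them did from the controls. With no filter the log2 difference was 0.45 (95% interval -0.01 to 0.92, adjusted p = 0.211), and the groups overlapped on each of its 5 probesets. The difference between SNAI1 and SNAI2 in their response was not tested. SNAI3, another member of the family, was not analysed here.

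ZEB2, also called SIP1, is a zinc-finger and homeodomain repressor that acts with SMAD proteins downstream of TGF-beta and represses CDH1. Its intensity was 196 and 212 in α3 shRNA cells, against 131 and 137 in control cells. The groups did not overlap, and replicates lay close together in each. The means were 204 ± 11.1 in α3 shRNA cells and 134 ± 4.64 in control cells, a log2 difference of 0.55 (SE 0.11, 95% interval 0.28 to 0.82, adjusted p = 0.0192, limma). This call rests on both α3 shRNA arrays: the adjusted p was 0.078 without α3 shRNA array 1 and 0.145 without α3 shRNA array 2, with log2 differences of 0.60 and 0.50.

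On the 17 ZEB2 probesets, both α3 shRNA arrays were above both control arrays on 13, below them on 1, and overlapped with them on 3, where 45.1% of all probesets showed no overlap in either direction. Of the 13 tested, 12 had a positive log2 difference, with a median of 0.52 and a range of -0.24 to 0.81. None passed the adjusted threshold, and 6 had an unadjusted p under 0.05, a count with no share of all probesets beside it. Probeset 2579612 gave 239 and 291 in α3 shRNA cells, against 142 and 145 in control cells (log2 difference 0.81, adjusted p = 0.0844, limma). Probeset 2579698 gave 244 and 236 in α3 shRNA cells, against 132 and 129 in control cells (log2 difference 0.80, adjusted p = 0.0849). The single probeset with the opposite order, 2579707, had 99.7 and 86.1 in α3 shRNA cells and 100.2 and 126 in control cells (log2 difference -0.24, adjusted p = 0.699). It has the highest number, and since ZEB2 lies on the minus strand it would come first along the transcript. Its departure from the other ZEB2 probesets had an unadjusted p of 0.0247 and an adjusted p of 0.762.

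ZEB1, the paralogue of ZEB2, represses CDH1 and the miR-200 genes. It had 531 and 526 in α3 shRNA cells, against 442 and 529 in control cells. The groups overlapped, because control array 2 lay between the α3 shRNA arrays while control array 1 was lower. The means were 529 ± 3.15 in α3 shRNA cells and 485 ± 60.9 in control cells (log2 difference 0.12, 95% interval -0.13 to 0.38, adjusted p = 0.46). None of its 12 probesets passed the test; their log2 differences ran from -0.14 to 0.46 around a median of 0.06. Taking each array's median over the exon-level values in place of the gene-level summary gave -0.06, so the sign of this small difference depended on the summary.

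**Figure D2:**
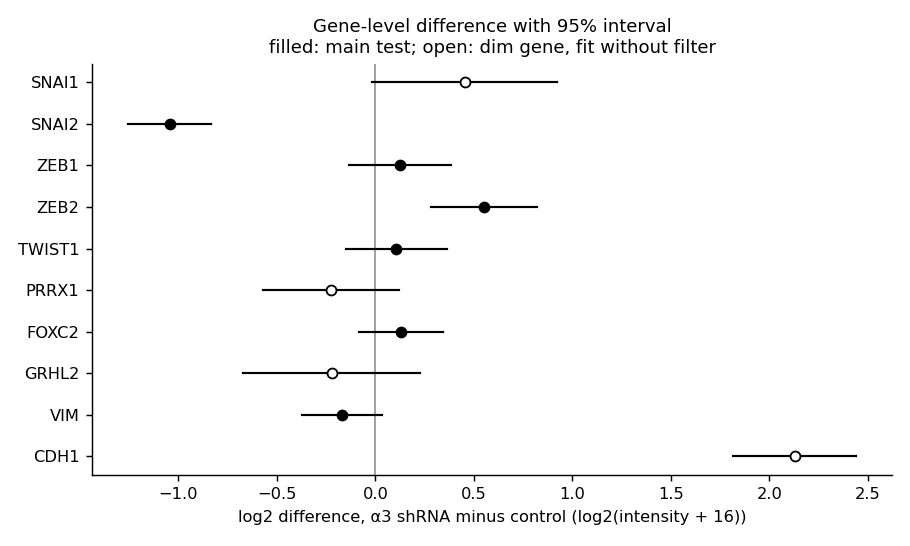
Log2 difference between α3 shRNA and control cells on the log2(intensity + 16) scale (x axis) with its 95% interval for the 9 members with a cluster and for CDH1, filled where the gene was tested and open where a dim gene was fitted without the filter. SNAI2 lies at -1.04, ZEB2 at 0.55 and CDH1 at 2.13 with intervals that leave out 0, and the intervals of the other 7 genes include it.

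TWIST1, a basic helix-loop-helix factor that acts as a dimer with E proteins, had 173 and 179 in α3 shRNA cells, against 165 and 159 in control cells. The groups did not overlap, but the gap between them was about as small as the distance between replicates (log2 difference 0.11, 95% interval -0.15 to 0.37, adjusted p = 0.528, limma). On each of its 5 probesets the groups overlapped. FOXC2, a forkhead factor known from mesoderm and from metastatic breast cancer models, had 610.0 and 552 in α3 shRNA cells, against 534 and 525 in control cells. Here too both α3 shRNA arrays were higher, by little beside their own spread (log2 difference 0.13, 95% interval -0.09 to 0.34, adjusted p = 0.351). Of the 10 FOXC2 probesets, 1 had both α3 shRNA arrays above the controls, 2 had both below and 7 overlapped. The share without overlap was 45.1% over all probesets. Each array's median over the exon-level values of FOXC2 gave a difference of -0.02.

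PRRX1, a paired-related homeobox factor that promotes EMT, was dim at 41.1 and 39.2 in α3 shRNA cells, against 53.0 and 46.5 in control cells (log2 difference -0.23 with no filter, 95% interval -0.57 to 0.12, adjusted p = 0.392). Its relative PRRX2 was tested and had 197 and 118 in α3 shRNA cells, against 151 and 102 in control cells (adjusted p = 0.522). In PRRX2 the replicates of both groups differed more than the groups did. GRHL2, the grainyhead-like factor that holds cells in the epithelial state, was dim at 37.7 and 26.7 in α3 shRNA cells, against 43.1 and 36.8 in control cells, and the groups overlapped (log2 difference -0.22 with no filter, adjusted p = 0.534). On its 19 probesets 2 had both α3 shRNA arrays above the controls, 6 had both below and 11 overlapped, where 45.1% of all probesets showed no overlap. Its relatives GRHL1 and GRHL3 were dim as well, with 74.0 and 67.8 for GRHL1 in α3 shRNA cells, against 56.5 and 57.1 in control cells, and 95.3 and 77.4 for GRHL3 in α3 shRNA cells, against 86.8 and 74.0 in control cells. With no filter neither passed, with adjusted p of 0.286 for GRHL1 and 0.817 for GRHL3. FOXC1 was not analysed here.

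VIM had 4347 and 4534 in α3 shRNA cells, against 4761 and 5241 in control cells. Both α3 shRNA arrays were lower than both control arrays, and the control arrays differed from each other by more than the nearest arrays of the 2 groups did. The means were 4441 ± 132 in α3 shRNA cells and 5001 ± 339 in control cells, or 88.8% of control (log2 difference -0.17, 95% interval -0.37 to 0.04). The gene did not pass the test (adjusted p = 0.208, limma), and the interval leaves out a fall as large as that of SNAI2.

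The VIM probesets did not all look alike. Of 21, both α3 shRNA arrays lay below both control arrays on 11, above them on 1, and overlapped with them on 9, where 45.1% of all probesets showed no overlap. Probeset 3236972 gave 2389 and 2392 in α3 shRNA cells, against 3272 and 3535 in control cells, and fell (log2 difference -0.51, adjusted p = 0.0409, limma). Probeset 3236977 gave 3709 and 3114 in α3 shRNA cells, against 4763 and 4972 in control cells, and fell by about as much (log2 difference -0.52, adjusted p = 0.0463). At the other end of the gene, probeset 3236999 gave 11427 and 10951 in α3 shRNA cells, against 10692 and 10872 in control cells (log2 difference 0.05, adjusted p = 0.789). The 20 tested probesets ran from -0.77 to 0.18 with a median of -0.20. Of these, 9 had an unadjusted p under 0.05, a count with no share of all probesets beside it.

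Counted over all members, 7 of the 61 tested probesets fell, 5 in SNAI2 and 2 in VIM, and none rose, where 3.33% of all tested probesets fell and 1.33% rose. At an unadjusted p under 0.05 the number in either direction was 20, but the share of all probesets at that threshold was not counted. The 7 became 6 without α3 shRNA array 1, 3 without α3 shRNA array 2, 4 without control array 1 and 3 without control array 2. In the exon usage test, which asks whether a probeset departs from the mean of its gene's other tested probesets, 0 of 56 member probesets passed the adjusted threshold in limma and 7 had an unadjusted p under 0.05. Over all genes 0.0592% of probesets passed the adjusted threshold, and the share under the unadjusted one was not counted.

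**Figure D3:**
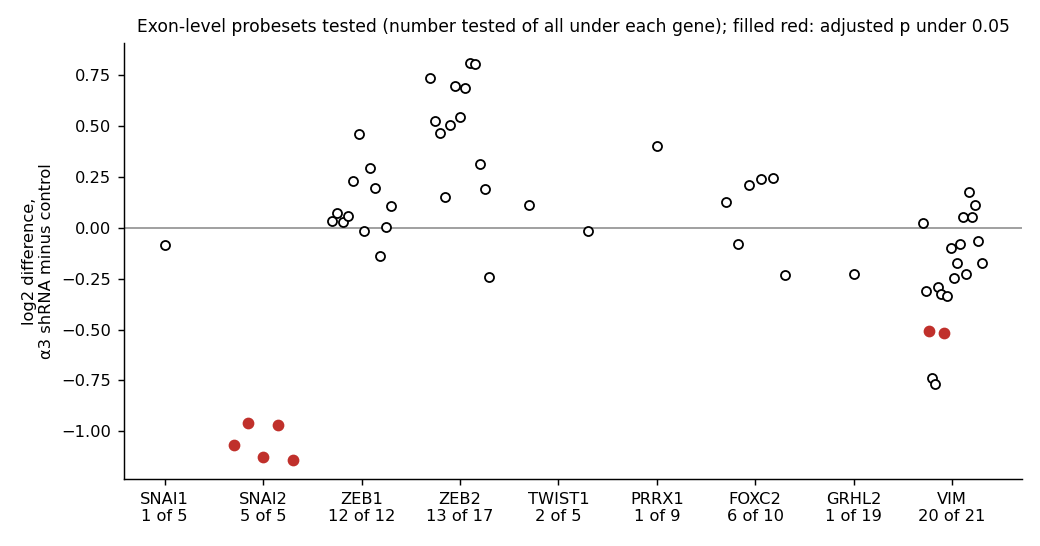
Log2 difference between α3 shRNA and control cells (y axis) for each tested exon-level probeset of the 9 members with a cluster (x axis, with the number tested of all probesets), red where the adjusted p was under 0.05. All 5 SNAI2 probesets lie between -1.14 and -0.96, most ZEB2 probesets lie above 0 without passing the test, and VIM spreads from -0.77 to 0.18.

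Ordered by probeset number and turned to the direction of transcription, the VIM probesets differed more between the groups at the 5′ end than at the 3′ end. The mean log2 difference was -0.43 over the 6 tested probesets nearest the 5′ end and -0.02 over the 6 nearest the 3′ end, a gap of -0.41. A lower gap was found in 1.43% of 5577 genes with at least 10 tested probesets, whose median gap was 0.02 with 5th and 95th percentiles of -0.28 and 0.34. This is a description of the probesets, which share the same 4 arrays, and it carries no test. Array by array, the 5′ minus 3′ difference in VIM log2 intensity was -1.61 and -1.98 in α3 shRNA cells and -1.18 and -1.59 in control cells, so α3 shRNA array 1 and control array 2 were nearly level. The same quantity over all genes had medians of 0.20 and 0.16 in α3 shRNA arrays and 0.21 and 0.10 in control arrays, which overlap, and a part of RNA integrity in the VIM gap was not tested. Positions within a gene are not given by the files; cluster numbers followed RefSeq gene starts with a median Spearman rho of 0.99 over 44 chromosome strands, at the least 0.881. By the same order ZEB2 had 0.27 at the 5′ end and 0.47 at the 3′ end (gap -0.20, with a lower one in 10.2% of genes), and ZEB1 had 0.05 and 0.04.

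**Figure D4:**
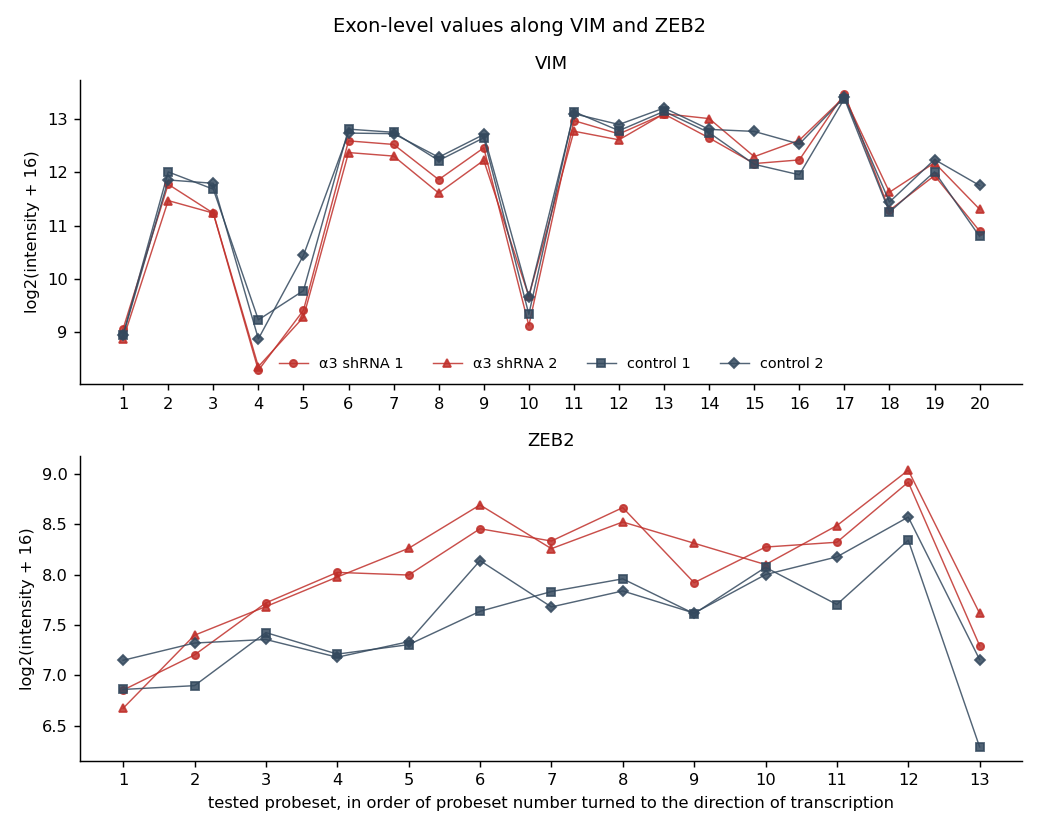
Exon-level log2(intensity + 16) on each array (y axis) for the tested probesets of VIM (top, 20) and ZEB2 (bottom, 13), ordered by probeset number turned to the direction of transcription (x axis), with red lines for the 2 α3 shRNA arrays and dark lines for the 2 control arrays. In VIM the red lines run below the dark ones over much of the left side and mix with them on the right, and in ZEB2 they run above both dark ones at all but the first 2 probesets.

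The genes whose pattern over the 4 arrays was nearest to that of a called member, by Euclidean distance of mean-centred log2 values among 9323 genes, were listed as a description. For SNAI2 they were PTGER4, a prostaglandin E2 receptor, at a distance of 0.0721, CRISPLD1 at 0.0752 and EVA1A at 0.0824. PTGER4 had 246 and 234 in α3 shRNA cells, against 513 and 523 in control cells. For ZEB2 they were DENND3 at 0.0214, SIDT1 at 0.0215 and HDAC2, a histone deacetylase found in repressor complexes, at 0.0354. HDAC2 had 1479 and 1621 in α3 shRNA cells, against 1021 and 1097 in control cells.

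CDH1, the classic target that SNAI and ZEB factors repress, had 177 and 168 in α3 shRNA cells, against 25.4 and 28.8 in control cells. The groups were far apart, but the mean over all 4 arrays (99.8) lay just under the intensity filter (108.3). At the gene level CDH1 was therefore fitted without the filter only. The means were 172 ± 6.79 in α3 shRNA cells and 27.1 ± 2.37 in control cells, a ratio of 6.37, and CDH1 rose in that fit (log2 difference 2.13, 95% interval 1.82 to 2.44, adjusted p = 0.00435, limma, where 2.20% of all 22011 clusters rose). The adjusted p passed the threshold with all 4 arrays only: it was 0.107 without α3 shRNA array 1, 0.0915 without α3 shRNA array 2, 0.0693 without control array 1 and 0.0758 without control array 2, with log2 differences of 2.07 to 2.19. Over all probesets 45.1% showed no overlap in either direction. On the 21 CDH1 probesets, both α3 shRNA arrays lay above both control arrays on 16 and below them on 1, and 4 overlapped. Among those that overlapped was the lowest-numbered probeset, 3666410, with 909 and 611 in α3 shRNA cells and 568 and 687 in control cells. Probeset 3666442 gave 331 and 350.3 in α3 shRNA cells, against 109 and 79.5 in control cells (log2 difference 1.71, adjusted p = 0.0089, limma). It was 1 of 5 that rose among the 8 tested in the exon-level fit, where 0 fell. Of all tested probesets 1.33% rose. These 5 passed the filter through their α3 shRNA values, as their control means lay below the cutoff of 99.4. CDH2, which encodes N-cadherin, was dim at 36.1 and 42.4 in α3 shRNA cells and 26.4 and 31.1 in control cells (adjusted p = 0.299 with no filter). Of the other luminal epithelial markers chosen with CDH1, directions were mixed: over that list 7 of 10 were above the filter, KRT18 rose, KRT19 fell, ESR1 and PGR were dim, and the summed intensity was 13521 and 12514 in α3 shRNA cells and 13145 and 13323 in control cells.

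Genes around the members were counted in 5 lists, of which 85 genes were tested; 9 rose and 19 fell, where 6.00% of all tested clusters rose and 15.4% fell, and the split was 13 and 17 after quantile normalization and 12 and 16 after centring on the array median. In the epithelial list, genes of junctions, keratins and epithelial trafficking, 16 of 25 were tested, 3 rose (CLDN4, MAL2, KRT18), 5 fell (KRT19, CLDN7, AP1M2, SPINT2, PKP3) and 8 did not pass, with a median log2 difference of 0.06. CLDN4, a tight junction claudin, had 837 and 765 in α3 shRNA cells, against 279.5 and 342 in control cells (log2 difference 1.33, adjusted p = 0.0021). CLDN7, another claudin, went the other way with 339 and 366 in α3 shRNA cells, against 617 and 589.7 in control cells (log2 difference -0.75, adjusted p = 0.0044). The simple-epithelium keratin KRT19 had 2357 and 2342.5 in α3 shRNA cells, against 3812 and 4204 in control cells (log2 difference -0.76, adjusted p = 0.0035). KRT18 and PKP3 lost their calls with no filter (adjusted p of 0.0642 and 0.0521, limma). AP1M2, an epithelial sorting adaptor, had 559 and 530.0 in α3 shRNA cells, against 759 and 737 in control cells (log2 difference -0.45, adjusted p = 0.0141). That call was lost without α3 shRNA array 1 (0.0661) or α3 shRNA array 2 (0.114), and the median of its probesets gave the opposite sign (0.28, adjusted p = 0.205). The list's counts also moved, to 1 that rose without α3 shRNA array 2 or control array 2, and to 2 that fell without either α3 shRNA array.

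In the mesenchymal list 19 of 30 were tested, 1 rose (COL5A1), 8 fell (LOX, TNC, MYL9, CDH11, FN1, AXL, CALD1, ITGA5) and 10 did not pass, with a median of -0.27. Among all tested clusters 6.00% rose and 15.4% fell. After quantile normalization 2 genes of the list rose and 7 fell. With no filter 0 rose and 7 fell, as COL5A1 (adjusted p = 0.0530, limma) and ITGA5 (0.0740) lost their calls. The matrix glycoprotein tenascin C, TNC, had 45.2 and 57.7 in α3 shRNA cells, against 299 and 382 in control cells (log2 difference -2.40, adjusted p = 0.0010). LOX, the lysyl oxidase that crosslinks collagen, had 449 and 432 in α3 shRNA cells, against 1209 and 1093 in control cells (log2 difference -1.35, adjusted p = 0.0008). In both genes the groups were well apart. TNC passed the filter through its control values, as its α3 shRNA mean (51.4) lay below the cutoff of 108.3. With no filter its adjusted p was 0.0062 (limma). CDH11, a mesenchymal cadherin, had 1249.9 and 1210.0 in α3 shRNA cells, against 2463 and 2569.9 in control cells (log2 difference -1.02, adjusted p = 0.0011). MYL9, a myosin light chain of the contractile cytoskeleton, had 547 and 547 in α3 shRNA cells, against 1163 and 1178 in control cells (log2 difference -1.08, adjusted p = 0.0010). On the median of its probesets MYL9 had a log2 difference of -0.50 and an adjusted p of 0.0546. The call of COL5A1 was lost without α3 shRNA array 1, α3 shRNA array 2 or control array 1. The list shares collagens and THY1 with the fibroblast markers, of which 1 of 8 rose (PDGFRB) and 6 were dim, DCN, LUM, THY1 and FAP among them. The summed intensity of these markers was 689 and 668 in α3 shRNA cells and 475 and 464 in control cells. Within that sum PDGFRB alone had 271 and 262 in α3 shRNA cells, against 74.0 and 80.0 in control cells. PDGFRB passed the filter through its α3 shRNA values, as its control mean (77.0) lay below the cutoff of 108.3. The part of these markers in the list's values was not tested.

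**Figure D5:**
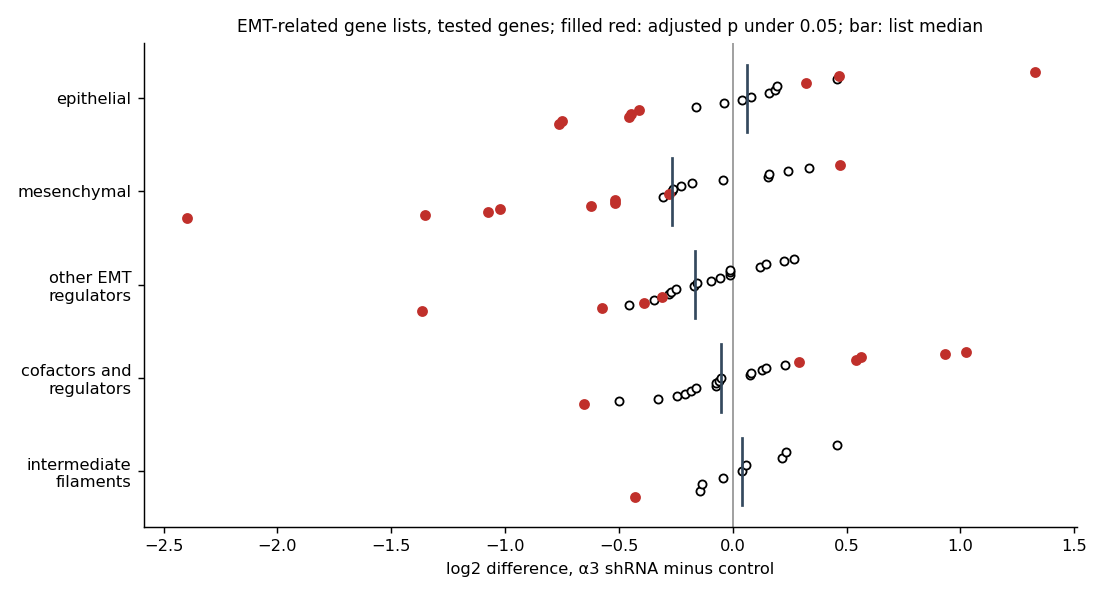
Log2 difference between α3 shRNA and control cells (x axis) for the tested genes of the 5 lists (rows), red where the adjusted p was under 0.05, with a dark bar at each list's median. The mesenchymal list has 8 red points left of 0 and 1 right of it, the epithelial list has 5 left and 3 right, and the cofactor list has 1 left and 5 right.

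In the list of other EMT regulators, 20 of 30 were tested, none rose, 4 fell (SOX9, TCF4, YAP1, TCF3) and 16 did not pass, with a median of -0.17. Among all tested clusters 6.00% rose and 15.4% fell. SOX9, known to act with Slug in mammary stem cells, had 231 and 241 in α3 shRNA cells, against 603 and 665 in control cells (log2 difference -1.36, adjusted p = 0.0010). On each array's median over the exon-level values SOX9 had a log2 difference of -0.65 and an adjusted p of 0.0159. TCF4, TCF3 and TCF12 encode E proteins, the dimer partners of TWIST1. TCF12 did not pass (log2 difference -0.09, adjusted p = 0.542, limma), and its groups overlapped. TCF4 had 97.5 and 94.1 in α3 shRNA cells, against 136 and 167 in control cells (log2 difference -0.58, adjusted p = 0.0339). TCF4 passed the filter through its control values, as its α3 shRNA mean (95.8) lay below the cutoff of 108.3. TCF3 had 389 and 382 in α3 shRNA cells, against 474 and 490.4 in control cells (log2 difference -0.31, adjusted p = 0.0461). YAP1, the Hippo pathway co-activator, had 1053 and 958 in α3 shRNA cells, against 1233 and 1415 in control cells (log2 difference -0.39, adjusted p = 0.0383). The groups did not overlap in any of the 4 genes that fell, where the same held for 52.2% of all clusters. Only SOX9 was called whichever single array was left out. The calls of TCF4 and YAP1 were lost without α3 shRNA array 1, α3 shRNA array 2 or control array 2. That of TCF3 was lost whichever array was left out. With 1 array left out, the log2 difference ran from -0.71 to -0.44 for TCF4, -0.49 to -0.29 for YAP1 and -0.33 to -0.29 for TCF3. TCF3 also missed the threshold after quantile normalization (0.0945) and centring on the array median (0.0848), and YAP1 after centring (0.0577). With no filter 1 gene of the list fell, and the adjusted p was 0.0642 for TCF4, 0.0796 for YAP1 and 0.0726 for TCF3. Without an intensity trend it was 0.0573 for YAP1 and 0.0531 for TCF3, and on exon-level medians 0.0648 for TCF3.

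In the list of cofactors and regulators of the members, 21 of 32 were tested, 5 rose (ID3, ID1, HDAC1, HDAC2, KDM1A), 1 fell (EZH2) and 15 did not pass, with a median of -0.05. Among all tested clusters 6.00% rose and 15.4% fell. ID proteins lack a DNA-binding region and sequester E proteins. ID3 had 736 and 720.5 in α3 shRNA cells, against 342 and 358 in control cells (log2 difference 1.02, adjusted p = 0.0015). ID1 had 1434 and 1390.2 in α3 shRNA cells, against 687 and 780.3 in control cells (log2 difference 0.93, adjusted p = 0.0026). ID2 did not pass (log2 difference -0.06, adjusted p = 0.734, limma), and its groups overlapped. HDAC1, HDAC2 and the demethylase KDM1A belong to complexes that SNAI and ZEB proteins recruit. Other cofactors of the list did not pass, among them CTBP1, RCOR1 and SIN3A. Their log2 differences were -0.07, -0.05 and -0.18, with adjusted p of 0.597, 0.796 and 0.214 (limma). KDM1A had an adjusted p of 0.0441, and of 0.0762 with no filter. HDAC1 had 2685 and 3008 in α3 shRNA cells, against 1922 and 1912 in control cells (log2 difference 0.56, adjusted p = 0.0083). Without α3 shRNA array 2 the adjusted p of HDAC1 was 0.0521 and the list had 2 genes that rose. EZH2, the methyltransferase of Polycomb complex PRC2, had 748 and 769 in α3 shRNA cells, against 1165 and 1238 in control cells (log2 difference -0.65, adjusted p = 0.0046).

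Of the other intermediate filament genes, 9 of 15 were tested, none rose, 1 fell and 8 did not pass, with a median of 0.04. Among all tested clusters 6.00% rose and 15.4% fell. After quantile normalization or centring on the array median 1 gene of the list rose and 1 fell. LMNA, which encodes the nuclear lamins A and C, had 1411 and 1443 in α3 shRNA cells, against 1986 and 1870.5 in control cells (log2 difference -0.43, adjusted p = 0.0132). The LMNA call was lost without α3 shRNA array 1 (0.0753) or α3 shRNA array 2 (0.0701). SYNM encodes synemin, a partner of vimentin in mixed filaments, and had 392 and 463 in α3 shRNA cells, against 270.3 and 344 in control cells (log2 difference 0.46, adjusted p = 0.0686). SYNM passed after quantile normalization (0.0168), centring (0.0239) and without control array 2 (0.0374). NES, which encodes nestin, had 246 and 286 in α3 shRNA cells and 240.5 and 208 in control cells (adjusted p = 0.234). BFSP1, a lens filament protein, had 131 and 155 in α3 shRNA cells and 111 and 131 in control cells (adjusted p = 0.327).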

How the data were processed

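RNA of 2 α3 shRNA and 2 control shRNA cultures was measured on 1 exon array each. The authors deposited PLIER intensities on a linear scale. Per the labels these were made with Affymetrix Expression Console from core probesets, while the series description credits Affymetrix's Exon Array Computational Tool. The software versions, the background correction and any between-array normalization were not given in the sources used here, and detection calls were not used. Sample titles gave the groups and replicate numbers. Of 22011 clusters and 287329 probesets, 14432 and 261273 had 1 symbol in the platform annotation, 2408 and 9155 several, and 5171 and 16901 had no row there. Symbols were taken by Entrez identifier (14404 clusters, whether or not the symbol changed) or updated through RefSeq synonyms (22 clusters, 31110 probesets). Features without a single symbol entered the tests unnamed, and a listed gene with several clusters is represented by its brightest one.

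Intensities were transformed as log2(value + 16), which understates changes of dim genes, and the scaling was left as deposited. A filter on the mean over the 4 arrays removed the lower 40% of features (cutoffs 108.3 and 99.4). Differences were tested with limma 3.58.1 in R version 4.3.3 (linear model on group alone, moderated by eBayes along an intensity trend, two-sided, 2 residual degrees of freedom) over 13206 clusters and 172397 probesets, adjusted by Benjamini-Hochberg and called under 0.05. Exon usage was tested in the same way on each probeset minus the mean of the other tested probesets of its gene, for genes with at least 3 (155406 probesets). Dim genes were fitted with no filter, over all clusters. The filtered gene-level and exon-level fits and the exon usage fit were run on simulated data, and the fit with no filter was not. Tables were made in pandas 2.3.3 and data.table (1.17.8), plots with matplotlib 3.10.9 in Python 3.11.15. Promoters come from a table of RefSeq gene starts (GRCh38.p14), in which 5 of the 10 members were matched. No scanner file was used, and the number of arrays limits the precision of every value.

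Members, lists and tests were chosen with earlier results of these data known. By the rule for named genes the text gives all members, ITGA3, the family relatives, CDH1 and CDH2. It also gives the 4 tested genes per list with the smallest p and the 3 genes nearest to each called member. The other list genes in the text, the markers and the single probesets were named after their values were seen. Alternatives covered the offset, the filter, scaling, variance model, replicate block, leaving out each array and medians of exon-level values.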

Additional observations from a re-analysis of the deposited data

How the results depend on the processing

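SNAI2 alone fell at the gene level under all 15 alternatives, and the number of members that rose (1, ZEB2) was 0 with the lower 60% left out, where ZEB2 was not tested, and 0 to 1 when 1 array was left out. At the exon level the 7 probesets that fell became 0 with no filter, 4 after centring on the array median, 3 without an intensity trend, and 3 to 6 when 1 array was left out. Of the listed genes, 3 to 7 rose and 10 to 17 fell when 1 array was left out, against 9 and 19 with all. AP1M2 reversed to a log2 difference of 0.28 on exon-level medians; the cause was not tested. The gap along VIM ran from -0.61 to -0.21 over 8 alternatives chosen after seeing the data, as were those for CDH1, whose adjusted p was 0.0016 to 0.0074 where no array was left out. Same-numbered arrays deviated together (correlation 0.293 for clusters and 0.301 for probesets), but with 2 pairs and no label saying that a number marks a shared batch they were not treated as pairs. With a replicate block, 5 member probesets rose and 13 fell, 1 VIM probeset passed the exon usage test, and 11 listed genes rose and 28 fell, SYNM among those that rose (adjusted p = 0.00703). No detection calls were used, so whether a dim gene was expressed was not tested. With 2 arrays a group, intervals were wide: the one for ZEB1 includes a rise of 0.38.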
